A study of Homo sapiens with 4 samples.

Results

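Trophectoderm-like (TE-like) cells of human blastoids at 120 h were set against the cells of the 40 h aggregates from which such blastoids form, at a matched dose of dimethyl α-ketoglutarate (dm-αKG). The members are single cells of 1 capture run (run 1), chosen by their counts of unique molecular identifiers (UMIs, each standing for 1 captured RNA molecule). A blastoid cell was called TE-like when its UMIs for 4 TE genes (KRT8, KRT18, GATA3 and CLDN4) outnumbered its UMIs for 5 pluripotency genes (POU5F1, DPPA5, DPPA4, L1TD1 and TDGF1), and all aggregate cells entered whatever they expressed. These 9 genes chose the cells, so their values are a description only. Of 9431 barcodes in run 1, and of 24564 in the whole series, 3555 had 1 hashtag with at least 80% of the hashtag UMIs, at most 15% mitochondrial UMIs and at least 7000 UMIs in all. Among them 74 blastoid cells were TE-like and 2115 were aggregate cells, 2189 members together.

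All cells came from H9, an established human embryonic stem cell line kept in naive pluripotency. Blastoids had 4 mM dm-αKG, a cell-permeable form of the metabolite α-ketoglutarate, in the medium for the initial 40 h only, or 0 mM throughout, and were taken at 120 h. Aggregates had 4 or 0 mM over the same initial 40 h and were taken at that point. Run 1 held 4 cultures, 1 for each stage and dose, and run 2, an independent experiment, held blastoids of both doses and no aggregates. The stages also differ in medium, because aggregates were still in a medium with a MEK inhibitor (PD0325901), a TGFβ receptor inhibitor (A83-01) and LIF, while blastoids had ended in a medium with lysophosphatidic acid and the ROCK inhibitor Y27632 only. The age of the culture, the medium and the identity of the cells therefore cannot be told apart in the comparison. Only blastoids with a single cavity were picked, by mouth pipette, and the study states that TE cells were lost in dissociation. With 1 culture for each group there is no spread between cultures, so no p-value is given. Levels are counts per 1000000 UMIs (CPM), from UMIs summed over the cells of a group, and every interval is a 95% interval that covers counting error only.

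The trophectoderm is the outer epithelium of the blastocyst, the earliest lineage to part from the cells that make the embryo. Its cells are polarised, seal against each other, pump fluid into the cavity and later found the placenta, and in human cells transcription factors such as GATA2, GATA3, TFAP2C and the TEAD family with their YAP and VGLL partners mark that identity. Naive pluripotent cells resemble the pre-implantation epiblast and depend on POU5F1, SOX2 and NANOG, and inhibition of MEK and of TGFβ signalling is a common way to lead them into trophectoderm.

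The culture of each cell was read from the antibody hashtag it carried, a short designed barcode counted in the same matrix. The barcodes are shown because they alone tie a cell to its stage and dose; in lower case and 5′ to 3′ they were:
blastoids, 4 mM: tgatggcctattggg
aggregates, 4 mM: agtaagttcagcgta
blastoids, 0 mM: gtcaactctttagcg
aggregates, 0 mM: ttccgcctctctttg
The median share of the leading hashtag among kept cells was 94.4% in blastoids and 96.9% in aggregates at 4 mM, and 93.2% in blastoids and 89.5% in aggregates at 0 mM. Asking for a share of 90% left 475 of the 1017 aggregate cells at 0 mM. Runs 1 and 2 shared 28 barcodes, 10 of them kept in both, and doublets within 1 culture carry 1 hashtag and were not removed.

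At 4 mM the rule found 56 TE-like cells among 1062 blastoid cells (5.27%, exact Clopper-Pearson interval 4.01 to 6.79%), and it was met by 2 of 1098 aggregate cells. At 0 mM it found 18 among 378 blastoid cells (4.76%, 2.85 to 7.42%), and it was met by 1 of 1017 aggregate cells. The TE-like sums therefore rest on few cells, with 1869052 UMIs at 4 mM and 486929 UMIs at 0 mM, against 32430297 and 31291983 UMIs in the aggregates. One UMI was worth 0.535 CPM in the TE-like sum at 4 mM and 2.05 CPM in that at 0 mM. Median UMIs per cell were 32758 in TE-like cells and 28271 in aggregates at 4 mM, and 25725 in TE-like cells and 29672 in aggregates at 0 mM. Median mitochondrial shares were 3.82% and 5.14% in the same groups at 4 mM, and 6.104% and 4.24% at 0 mM. With each cell thinned to 7000 UMIs, TE-like cells had a median of 2130 genes and aggregates of 2324 at 4 mM, and 2072 and 2346 at 0 mM.

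Most TE-like cells lay far from the boundary of the rule. The TE genes had at least 10 times the UMIs of the pluripotency genes in 54 of the 74 cells and at least 5 times in 67, while 5 cells (3 at 4 mM and 2 at 0 mM) were under 2 times. The 5 cells just inside the boundary held 184 TE against 171 pluripotency UMIs, 50 against 46, 19 against 17, 143 against 105 and 17 against 11. The 5 blastoid cells just outside held 136 against 164, 84 against 114, 59 against 81, 102 against 157 and 32 against 56. A TE-like cell at 4 mM held a median of 346 TE UMIs and 17 pluripotency UMIs, against 8 and 96 in an aggregate cell, and at 0 mM the medians were 359 and 19 against 6 and 110.

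**Figure D1:**
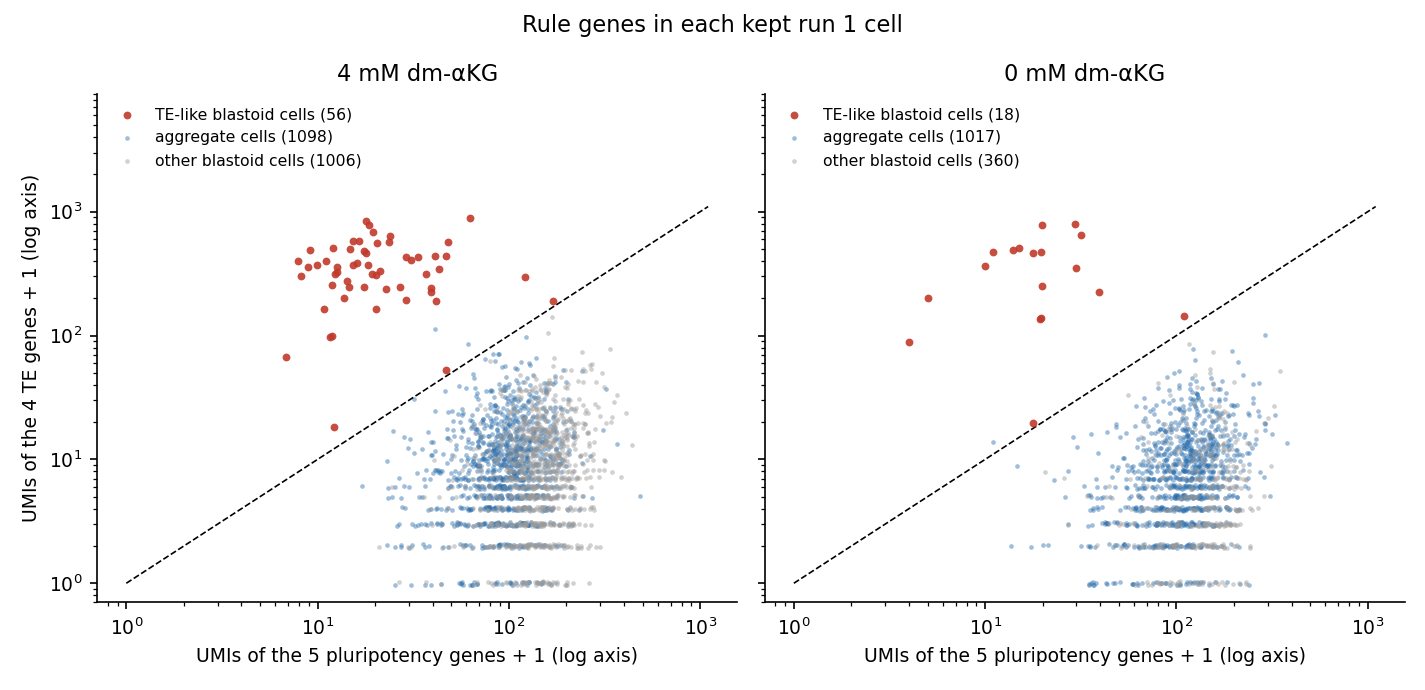
UMIs of the 4 TE genes (vertical log axis, plus 1) against UMIs of the 5 pluripotency genes (horizontal log axis, plus 1) in each kept run 1 cell, slightly jittered, at 4 mM (left) and 0 mM (right), with the boundary of the rule dashed. TE-like cells (red) stand above the boundary by construction, 54 of 74 with at least 10 times more TE than pluripotency UMIs, and the aggregates (blue) overlap the other blastoid cells (grey).

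The rule genes themselves read as follows. KRT18 and KRT8, keratins of simple epithelia whose annotated spans overlap on opposite strands, had 7276 and 3226 CPM in TE-like cells and 251 and 116 CPM in aggregates at 4 mM, and 9233 and 3760 CPM in TE-like cells and 186 and 101 CPM in aggregates at 0 mM. CLDN4, a tight junction claudin, had 295 CPM in TE-like cells and 1.67 CPM in aggregates at 4 mM, and 364 and 1.41 CPM at 0 mM. GATA3, a trophectoderm transcription factor, had 230 and 2.07 CPM at 4 mM and 103 and 1.82 CPM at 0 mM in the same order. KRT18 had a UMI in 93.3% of aggregate cells at 4 mM (67.9% after thinning) and in 91.7% of the other blastoid cells (66.6%), whereas GATA3 and CLDN4 had one in 5.19% and 4.55% of aggregate cells (1.46% and 1.18%). The cultures of run 1 shared a capture, and the part of free RNA in these shares was not tested. Of the pluripotency genes L1TD1 did not part the groups, with 403 CPM in TE-like cells and 400 CPM in aggregates at 4 mM and 331 and 356 CPM at 0 mM.

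Markers that the rule did not use are given as a description only. Some of them, such as PTN, GATA2 and ENPEP, passed the filter through the TE-like cells, so their high ratios are no support for the label. Over all genes compared, 4.44% were at least 2-fold higher and 7.11% at least 2-fold lower at both doses. Of 12 trophectoderm markers outside the rule, 9 passed the filter on low levels (an average of at least 20 CPM over the 4 groups) and 8 were at least 2-fold higher in TE-like cells at both doses, with a summed level of 3054 CPM in TE-like cells and 146 CPM in aggregates at 4 mM and of 1429 and 172 CPM at 0 mM. TFAP2C, a factor shared by trophectoderm and naive cells, passed 2-fold at 0 mM only, with 97.4 CPM in TE-like cells and 58.3 CPM in aggregates at 4 mM and 144 and 57.7 CPM at 0 mM. Of 8 epiblast markers outside the rule, 6 passed the filter and 5 were at least 2-fold lower in TE-like cells at both doses, with summed levels of 117 CPM in TE-like cells and 883 CPM in aggregates at 4 mM and 207 and 904 CPM at 0 mM. The short sets of defining markers of primitive endoderm (5), amnion (3) and mesoderm (3) reached at most 12.3, 4.82 and 1.39 CPM in any of the 4 groups, and none passed the filter. Longer lists hold genes that other cells also use: of 16 primitive endoderm genes 4 passed, with medians of 2.06 and 1.67, GATA6 and LAMA1 higher at both doses and SPARC lower at 4 mM only, and of 13 amnion genes 2 passed, CTSV, higher at 4 mM only, and TPM1, which passed 2-fold at neither dose. The primitive endoderm markers summed to 15.5 CPM in TE-like cells and 6.41 CPM in aggregates at 4 mM, and to 43.1 and 4.22 CPM at 0 mM; SOX17 among them had 6.42 and 8.21 CPM in TE-like cells and 0.0925 and 0.128 CPM in aggregates. Their part in the results was not tested.

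A gene entered the comparison when its level averaged at least 20 CPM over the 4 sums, which 4937 of 36601 genes did, and it was called higher or lower past a 2-fold ratio of CPM, TE-like over aggregates. A gene high in TE-like cells alone can pass that filter through those cells, so the calls describe these sums and support nothing further. At 4 mM, 305 genes were higher (6.18% of those compared) and 577 lower (11.7%) in TE-like cells. At 0 mM, 317 were higher (6.42%) and 678 lower (13.7%). The same direction held at both doses for 219 higher genes (4.44%) and 351 lower genes (7.11%). At both doses 40 genes were at least 16-fold higher and 3 at least 16-fold lower, and 95 and 100 passed 4-fold. Higher and lower counts at such ratios are not on an equal footing. A single UMI was worth 2.05 CPM in the TE-like sum at 0 mM and 0.0320 CPM in the aggregates. Low TE-like levels were therefore read less finely than low aggregate levels. The median log2 ratio over all genes compared was -0.11 at 4 mM and -0.20 at 0 mM. Normalisation factors by the trimmed mean of M values (TMM) took that median to 0.01 and -0.08.

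Among the 4937 genes compared, fewer separated the remaining blastoid cells from the same aggregates. The remaining cells, 1006 at 4 mM and 360 at 0 mM, were those that did not meet the rule. The filter used TE-like cells and aggregates only, so a gene high in the other blastoid cells alone could not enter. Their counts are therefore not on an equal footing with those of the TE-like cells. At both doses 24 genes were at least 2-fold higher and 15 at least 2-fold lower in these other blastoid cells. Of the 24, 15 were among the 219 of the TE-like cells, and of the 15, 1 was among the 351. TE-like and other blastoid cells share the aggregates they were compared with.

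**Figure D2:**
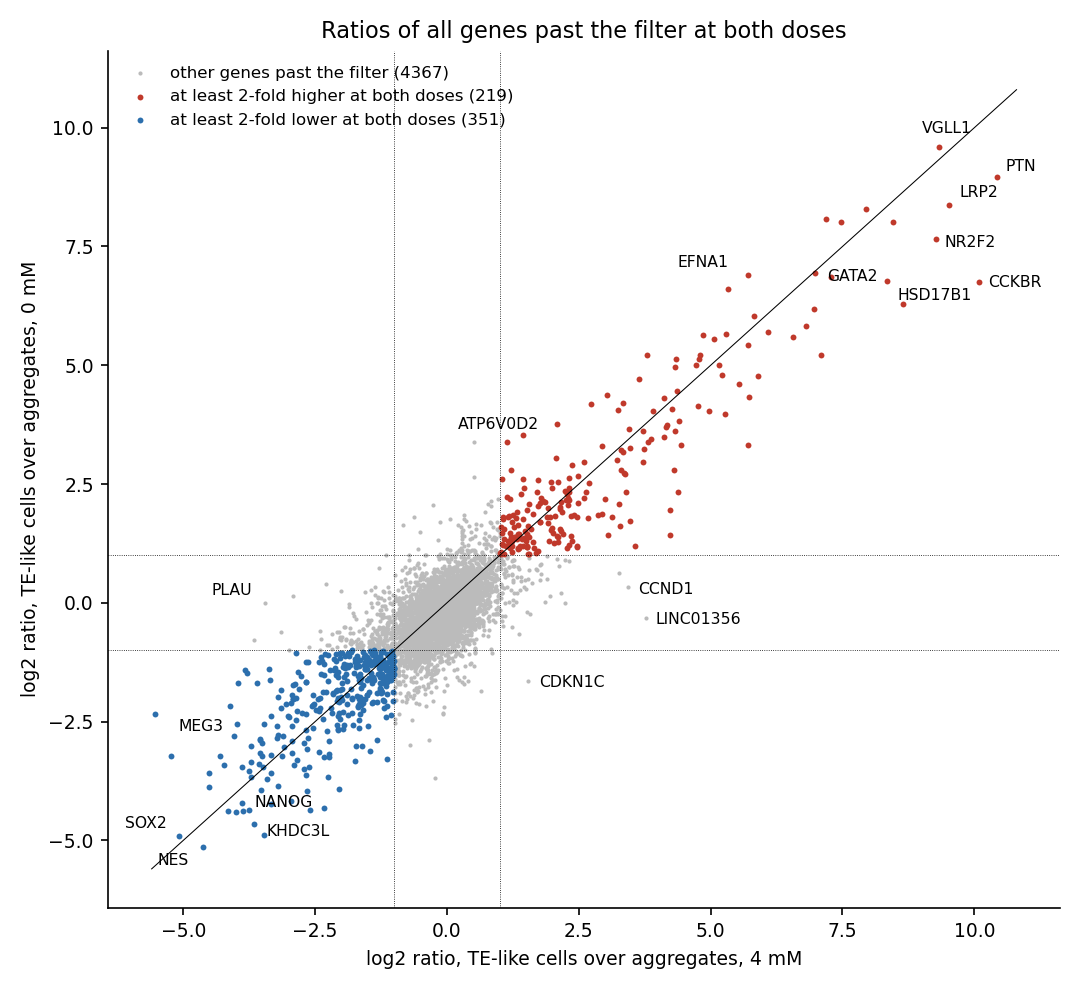
log2 ratio of TE-like cells over aggregates at 4 mM (horizontal axis) and at 0 mM (vertical axis) for the 4937 genes compared, with the 219 genes at least 2-fold higher at both doses in red and the 351 lower in blue; dotted lines mark 2-fold, the solid line equal ratios, and the value of VGLL1 at 4 mM is a lower bound. PTN, VGLL1, LRP2, NR2F2 and CCKBR stand at the upper end and SOX2 and NES at the lower, and CDKN1C is past 2-fold in opposite directions at the 2 doses.

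The 15 genes furthest above the aggregates at both doses were VGLL1, PTN, LRP2, DUSP6, HAPLN1, NR2F2, PRTG, GATA2, HES1, HSD17B1, CCKBR, TINAGL1, ENPEP, FRMD4B and EFNA1, with log2 ratios from 5.71 to 10.43 at 4 mM and from 6.04 to 9.59 at 0 mM. All 15 were close to silent in aggregates, whose level was at most 1.91% of the TE-like level at 4 mM and at most 1.52% at 0 mM. They were found in 30 to 52 of the 56 TE-like cells at 4 mM and in 2 to 16 of the 18 at 0 mM. TINAGL1 and CCKBR at 0 mM rested on few cells, since a single cell gave 81.8% of the TINAGL1 UMIs and 65.0% of the CCKBR UMIs there.

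VGLL1, a cofactor that binds TEAD transcription factors, had 111 UMIs in TE-like cells (59.4 CPM) and 0 UMIs in aggregates at 4 mM, and 12 UMIs (24.6 CPM) and 1 UMI (0.0320 CPM) at 0 mM. With the 0 set to 3 UMIs over the whole group it was at least 642-fold higher at 4 mM (513-fold with the counting error of the 111 UMIs), and at 0 mM the ratio was 771 with an interval of 114 to 32966. PTN, a secreted heparin-binding growth factor, had 936 CPM in TE-like cells and 0.678 CPM in aggregates at 4 mM, 1379-fold higher (908 to 2207), and 288 and 0.575 CPM at 0 mM, 500-fold higher (305 to 868). LRP2, the endocytic receptor megalin, had 159 and 0.216 CPM at 4 mM and 63.7 and 0.192 CPM at 0 mM in the same order. Neither dose left an aggregate level above 1 CPM for these genes, and none of their intervals overlapped between the stages. By GENCODE release 44 (GRCh38) the gene VGLL1, ENSG00000102243, spans chrX:136532215-136556807, PTN, ENSG00000105894, spans chr7:137227341-137343774 and LRP2, ENSG00000081479, spans chr2:169127109-169362534.

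Of 30 transcription factors and cofactors of trophectoderm, 15 passed the filter and 9 were at least 2-fold higher at both doses, none lower, with a median log2 ratio over those that passed of 2.59 at 4 mM and 2.97 at 0 mM. Several, such as VGLL1, NR2F2 and GATA2, passed only through the TE-like cells. Among all genes compared, 4.44% were higher and 7.11% lower at both doses, with medians of -0.11 at 4 mM and -0.20 at 0 mM. NR2F2, a nuclear receptor of polar trophectoderm, had 326 CPM in TE-like cells and 0.524 CPM in aggregates at 4 mM, and 45.2 and 0.224 CPM at 0 mM. GATA2, a zinc finger factor that acts with GATA3 in trophoblast, had 225 CPM in TE-like cells and 1.79 CPM in aggregates at 4 mM, and 138 and 1.12 CPM at 0 mM. Its ratio was 126 (95.3 to 168) at 4 mM and 123 (80.6 to 191) at 0 mM, so it was almost the same at the 2 doses. HAND1, a basic helix-loop-helix factor, was 93.9-fold (67.8 to 133) and 48.2-fold (17.9 to 125) higher at 4 and 0 mM, the homeobox gene MSX2 31.4-fold and 16.4-fold, the leucine zipper gene CEBPA 19.3-fold and 16.9-fold, and TEAD1, the DNA-binding partner of YAP, 13.3-fold and 9.44-fold. TEAD4, the family member needed for trophectoderm in the mouse, was not higher, with 47.6 CPM in TE-like cells and 78.4 CPM in aggregates at 4 mM and 73.9 and 84.1 CPM at 0 mM. CDX2 and TFAP2A fell under the filter, yet CDX2 had 35.3 CPM in TE-like cells and 0.956 CPM in aggregates at 4 mM and 39.0 and 0.320 CPM at 0 mM.

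GATA2 had a UMI in 51 of 56 TE-like cells and 4.10% of aggregate cells at 4 mM, and in 14 of 18 and 3.24% at 0 mM. GATA6, known for primitive endoderm and also present in early trophectoderm, had 69.6 CPM in TE-like cells and 1.73 CPM in aggregates at 4 mM and 103 and 1.05 CPM at 0 mM. It had a UMI in 44 of 56 TE-like cells and 2.91% of aggregate cells at 4 mM, and in 15 of 18 and 1.97% at 0 mM. Of the polar trophectoderm list of the study, NR2F2 had a UMI in 51 of 56 TE-like cells at 4 mM and in 10 of 18 at 0 mM, and CCKBR in 49 of 56 and in 3 of 18; in aggregates the share was at most 1.37% for either gene.

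The windows upstream of VGLL1 and GATA2 are shown because both genes were far above the aggregates and the windows contain letters of TEAD and TFAP2 motifs. Aggregates held RNA of such factors too. The log2 ratios at 4 and 0 mM were -0.72 and -0.19 for TEAD4, 3.74 and 3.24 for TEAD1 and 0.74 and 1.32 for TFAP2C. The part of these factors was not tested. Each window is the 250 bases before the RefSeq start of the gene (GRCh38.p14), 5′ to 3′ on the strand of the gene, and capitals mark a match to a motif on either strand. In VGLL1 (chrX:136531965-136532214, plus strand) the motif was that of TEAD factors, GGAATG, and in GATA2 (chr3:128493202-128493451, minus strand) that of TFAP2 factors, GCCNNNGGC, each with 1 match, which in VGLL1 lies on the other strand and so reads CATTCC.
VGLL1: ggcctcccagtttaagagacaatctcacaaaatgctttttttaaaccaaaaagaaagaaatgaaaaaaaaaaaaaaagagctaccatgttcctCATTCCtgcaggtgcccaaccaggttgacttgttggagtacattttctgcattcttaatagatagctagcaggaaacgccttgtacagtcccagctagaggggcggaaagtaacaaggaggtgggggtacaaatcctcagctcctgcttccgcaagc
GATA2: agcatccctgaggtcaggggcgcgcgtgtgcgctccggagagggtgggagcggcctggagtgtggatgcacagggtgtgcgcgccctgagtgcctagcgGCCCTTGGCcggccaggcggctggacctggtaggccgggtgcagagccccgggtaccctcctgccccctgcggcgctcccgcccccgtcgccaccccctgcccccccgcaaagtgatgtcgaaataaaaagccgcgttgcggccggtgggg
A match of letters is no binding site. GGAATG occurred in 11.9% of all 27305 RefSeq windows, in 9.21% of the 4051 windows of genes compared, in 7.88% of the 165 windows of genes higher at both doses and in 7.33% of the 273 windows of genes lower. GCCNNNGGC occurred in 19.7, 27.1, 35.8 and 29.7% of the same sets.

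Epithelial structure genes were higher in part, and are read beside shares over all genes of 4.44% higher and 7.11% lower at both doses. Of 16 keratin and desmosome genes, 8 passed the filter and 4 were higher at both doses (median log2 1.19 at 4 mM and 1.31 at 0 mM). KRT19 had 1193 CPM in TE-like cells and 57.4 CPM in aggregates at 4 mM, and 456 and 90.7 CPM at 0 mM, and the desmosome genes PKP2, JUP and DSC2 were between 2.70-fold and 6.08-fold higher. Of 21 apical polarity genes and linkers of the ERM family, which tie the apical membrane to actin, 10 passed and 6 were higher and 1 lower at both doses. EZR (ezrin) had 712 CPM in TE-like cells and 260 CPM in aggregates at 4 mM and 1017 and 394 CPM at 0 mM, and RDX (radixin), PARD6B, LLGL2, PATJ and the ezrin-binding SLC9A3R1 were higher with it. MSN (moesin), the third ERM member, went the other way, with 6.42 CPM in TE-like cells and 38.8 CPM in aggregates at 4 mM and 2.05 and 42.1 CPM at 0 mM.

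Junction and pump genes were counted beside shares over all genes of 4.44% higher and 7.11% lower at both doses. At 4 mM these shares were 6.18 and 11.7%, and at 0 mM 6.42 and 13.7%. The all-gene medians were -0.11 at 4 mM and -0.20 at 0 mM. Of 23 tight and adherens junction genes, 17 passed and 2, CTNNB1 (β-catenin) and CTNND1 (p120 catenin), were higher at both doses, with a median log2 of -0.20 at 4 mM and 0.08 at 0 mM. By single dose, 3 were higher and 1, OCLN, lower at 4 mM, and 4 were higher and 0 lower at 0 mM. CDH1, the main epithelial cadherin, had 97.4 CPM in TE-like cells and 121 CPM in aggregates at 4 mM and 90.4 and 136 CPM at 0 mM. Of 24 cavity pumps and channels, 7 passed and 2 were higher at both doses, with a median log2 of 0.76 at 4 mM and 0.45 at 0 mM. Of these, the water channel gene AQP3 had 48.7 CPM in TE-like cells and 23.7 CPM in aggregates at 4 mM and 94.5 and 15.4 CPM at 0 mM. ATP1B1 and SCNN1A were past 2-fold lower at 4 mM only, with log2 ratios of -1.25 and -2.91. CA2 was higher at 4 mM only and ATP6V0D2 at 0 mM only.

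**Figure D3:**
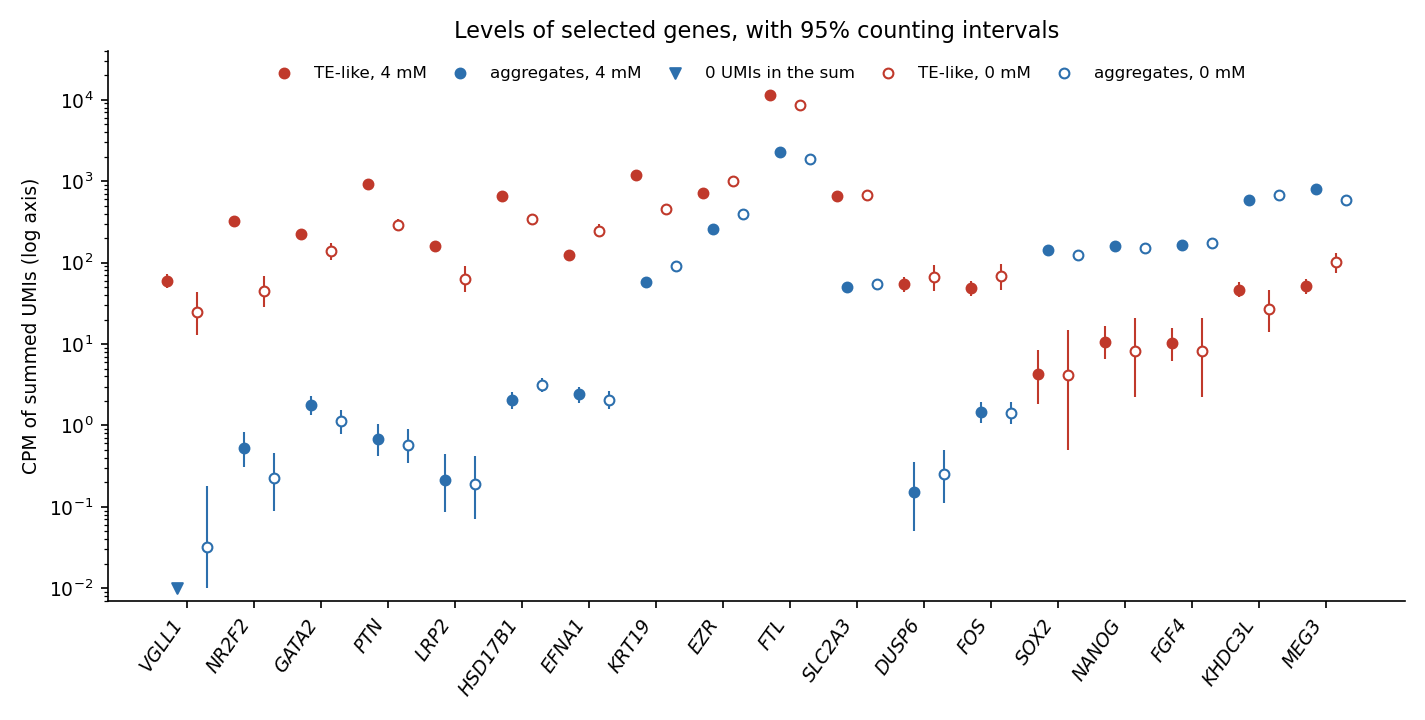
CPM of summed UMIs (log axis) for 18 genes in TE-like cells (red) and aggregates (blue) at 4 mM (filled) and 0 mM (open), with 95% counting intervals as lines, the lowest of which is drawn from the bottom mark, and a triangle at the bottom for the 0 UMIs of VGLL1. The first 13 genes are higher in TE-like cells at both doses, EZR among them by 2.58-fold at 0 mM, and SOX2, NANOG, FGF4, KHDC3L and MEG3 are lower.

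HSD17B1, an enzyme that reduces oestrone to oestradiol, had 660 CPM in TE-like cells and 2.04 CPM in aggregates at 4 mM, 324-fold higher (253 to 422), and 341 and 3.13 CPM at 0 mM, 109-fold higher (84.3 to 141). It was joined by STS (steroid sulphatase) and HSD17B12, 3 of the 6 steroid genes that passed out of 13 listed, with medians of 0.99 and 1.05, while FDX1, FDXR and HSD17B4 were under 2-fold. For this list and those below, the shares over all genes were 4.44% higher and 7.11% lower at both doses. ABCG2, a drug efflux transporter of the placenta, had 173 and 2.56 CPM at 4 mM and 96.5 and 1.85 CPM at 0 mM in TE-like cells and aggregates. Among 22 genes of lipid uptake and carriage, 9 passed and 4 were higher at both doses (LRP2, its adaptor DAB2, and the fatty acid-binding FABP7 and FABP5), while APOE and APOC1 had lower values in TE-like cells. FTL, the ferritin light chain, had 11343 CPM in TE-like cells and 2306 CPM in aggregates at 4 mM and 8747 and 1896 CPM at 0 mM. FTH1, the ferritin heavy chain, was not past 2-fold, with 3803 and 2345 CPM at 4 mM and 2670 and 2133 CPM at 0 mM. HMOX1, which releases haem iron, was 9.63-fold higher at 4 mM and 4.20-fold at 0 mM, whereas 6 metallothionein genes were lower at both doses, MT1G for example with 157 and 109 CPM in TE-like cells at 4 and 0 mM and 836 and 439 CPM in aggregates. Of 15 thymosin, annexin and S100 calcium-binding genes, 11 passed and 6 were higher at both doses. S100A6 had 528 and 11.4 CPM at 4 mM and 263 and 10.7 CPM at 0 mM, and S100A14 972 and 56.0 CPM and 976 and 49.4 CPM, TE-like cells before aggregates.

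Of 17 YAP and TEAD targets, 4 passed and 3 were higher at both doses: MYOF (26.5-fold at 4 mM and 32.1-fold at 0 mM), AMOTL2 (18.0-fold and 13.3-fold) and LATS2 (3.03-fold and 2.95-fold). The median log2 of the 4 that passed was 2.88 at 4 mM and 2.65 at 0 mM. MYOF and AMOTL2 passed the filter through the TE-like cells, so that median describes a selected few of the 17. Over all genes compared, 4.44% were higher at both doses. Of 19 ERK feedback and target genes, 5 passed and 3 were higher at both doses, namely DUSP6, DUSP5 and MYC, of which DUSP6 and MYC, for example, passed the filter through the TE-like cells. DUSP6, a phosphatase that switches ERK off and is itself induced by ERK, had 101 UMIs in TE-like cells (54.0 CPM) and 5 UMIs in aggregates (0.154 CPM) at 4 mM, and 32 UMIs (65.7 CPM) and 8 UMIs (0.256 CPM) at 0 mM. The MEK inhibitor was present in the medium of the aggregates and absent from that of the blastoids at collection, so medium and stage cannot be told apart for these genes.

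DUSP5, DUSP6, MYC and AMOTL2 were also higher in the other blastoid cells, which shared medium and time with the TE-like cells. The 15 genes higher at both doses in both kinds of blastoid cell were ABCG2, AMOTL2, CDKN1A, DUSP5, DUSP6, ERRFI1, FOS, H2AFY, HAPLN1, HES1, MIR205HG, MYC, PALM2-AKAP2, PPP1R15A and RAB31. Some passed the filter through the TE-like cells and were at low levels in the other blastoid cells. HAPLN1 had 0.508 and 1.33 CPM there at 4 and 0 mM, against 0.247 and 0.224 CPM in aggregates, and HES1 had 2.60 and 2.09 CPM there. FOS had 48.2 CPM in TE-like cells, 32.3 CPM in other blastoid cells and 1.45 CPM in aggregates at 4 mM, and 67.8, 28.4 and 1.44 CPM at 0 mM. DUSP6 in other blastoid cells was at 3.84 CPM at 4 mM and 2.85 CPM at 0 mM, and DUSP5 at 39.7 and 34.7 CPM against 71.2 and 78.0 CPM in TE-like cells and 5.67 and 2.97 CPM in aggregates. In the other blastoid cells GATA2 had 1.30 and 1.24 CPM, PTN 0.603 and 0.381 CPM and NR2F2 0.730 and 0.190 CPM at 4 and 0 mM, near those of the aggregates.

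The 15 genes furthest below the aggregates at both doses were SOX2, NES, GDF3, FGF4, NANOG, FBP1, NETO2, PLPP2, KHDC3L, MDFI, CDCA7L, AC064802.1, NPW, CGNL1 and SAMHD1, with log2 ratios from -3.47 to -5.08 at 4 mM and from -3.45 to -5.13 at 0 mM. SOX2, the HMG-box partner of POU5F1, had 8 UMIs in TE-like cells (4.28 CPM) and 4683 UMIs in aggregates (144 CPM) at 4 mM, and 2 UMIs (4.11 CPM) and 3854 UMIs (123 CPM) at 0 mM. That was 33.7-fold lower (17.1 to 78.2) at 4 mM and 29.99-fold lower (8.30 to 248) at 0 mM. NES (nestin, an intermediate filament of progenitor cells) had 3.75 and 92.6 CPM at 4 mM and 2.05 and 72.1 CPM at 0 mM. NANOG had 10.7 CPM in TE-like cells and 158 CPM in aggregates at 4 mM, and 8.21 and 152 CPM at 0 mM. FGF4, the epiblast ligand to which trophectoderm responds in the mouse, had 10.2 and 162 CPM at 4 mM and 8.21 and 174 CPM at 0 mM. GDF3, a TGFβ family ligand, had 9.10 and 163 CPM and 8.21 and 170 CPM in the same groups. None of these 15 genes was past 2-fold lower at both doses in the other blastoid cells of the same cultures, where SOX2 had 118 and 77.5 CPM, NANOG 208 and 142 CPM and FGF4 219 and 208 CPM at 4 and 0 mM.

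TE-like levels of these 15 genes were between 1.93 and 11.1% of those in the other blastoid cells at 4 mM and between 0 and 9.67% at 0 mM. They rest on few UMIs. At 4 mM 1 cell gave from 10.5% (SAMHD1) to 80.0% (FBP1) of the UMIs of a gene, and 47.1% for GDF3. At 0 mM NES, FBP1, NETO2, PLPP2 and CGNL1 had 1 UMI each, and the 2 UMIs of SOX2 came from 1 cell. AC064802.1, a gene known by a clone name only, had 0 UMIs in the 18 TE-like cells at 0 mM and 2972 UMIs in aggregates, so that with 3 UMIs in place of 0 it was at least 15.4-fold lower (12.5-fold with counting error). FBP1, a gluconeogenic phosphatase, had 5 UMIs in TE-like cells at 4 mM and 1 UMI at 0 mM.

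The window upstream of NANOG is shown because it was among the 15 lowest genes and is a known target of POU5F1 and SOX2; POU5F1 was itself used to choose the cells, so its level there is no finding. It was taken as for VGLL1 (chr12:7789152-7789401, plus strand), and capitals mark the octamer letters TTTGCAT bound by POU5F1, 120 bases before the start.
NANOG: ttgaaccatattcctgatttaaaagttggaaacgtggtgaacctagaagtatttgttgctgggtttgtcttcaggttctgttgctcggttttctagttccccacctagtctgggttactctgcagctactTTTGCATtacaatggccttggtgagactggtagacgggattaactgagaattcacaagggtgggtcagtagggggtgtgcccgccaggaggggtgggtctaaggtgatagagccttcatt
TTTGCAT on either strand occurred in 3.98% of all windows, in 2.25% of those of genes compared, in 4.76% of those of genes lower at both doses and in 3.03% of those higher.

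Many pluripotency genes were lower in TE-like cells, with exceptions. They are read beside shares over all genes of 4.44% higher and 7.11% lower at both doses. The all-gene medians were -0.11 at 4 mM and -0.20 at 0 mM. Of 28 naive pluripotency genes 20 passed, 11 were lower and none higher at both doses, and the median log2 was -1.95 at 4 mM and -1.26 at 0 mM. KHDC3L, a subunit of the maternal subcortical complex, had 46.5 CPM in TE-like cells and 591 CPM in aggregates at 4 mM and 26.7 and 673 CPM at 0 mM; UTF1, a chromatin factor, had 17.7 and 209 CPM and 18.5 and 194 CPM, and the Krüppel-like factor KLF4 was 5.46-fold and 4.10-fold lower. DNMT3L, the catalytically inactive methyltransferase cofactor of naive cells, was not past 2-fold, with 67.4 and 107 CPM at 4 mM and 144 and 167 CPM at 0 mM. KLF17 fell under the filter, with 1.07 CPM in TE-like cells and 14.7 CPM in aggregates at 4 mM and 0 UMIs and 14.6 CPM at 0 mM, where 0 of 18 cells had a UMI, which allows a share of cells with a UMI (not of cells that express the gene) of up to 16.7% at 3 cells of 18. Of 13 core genes 8 passed and 5 were lower at both doses. After thinning to 7000 UMIs, SOX2 had a UMI in 1.79% of TE-like cells and 57.2% of aggregate cells at 4 mM, and in 0 and 55.4% at 0 mM. Without thinning the shares were 12.5 and 92.3% at 4 mM and 5.56 and 89.0% at 0 mM.

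Imprinted and DNA-modifying genes moved in both directions, beside shares over all genes of 4.44% higher and 7.11% lower at both doses. H19, expressed from the maternal chromosome in placenta, had 470 CPM in TE-like cells and 24.9 CPM in aggregates at 4 mM and 67.8 and 25.0 CPM at 0 mM. At 0 mM it had a UMI in only 5 of the 18 TE-like cells (27.8%), against 48.8% of aggregate cells. After thinning these shares were 11.1% and 16.4%, so the higher level at 0 mM rests on few cells. MEG3 had 51.4 and 813 CPM at 4 mM and 101 and 594 CPM at 0 mM, and its neighbour MEG8 and SNRPN were lower with it. TET2, a dioxygenase that oxidises 5-methylcytosine with α-ketoglutarate as cosubstrate, had 105 CPM in TE-like cells and 6.11 CPM in aggregates at 4 mM, 17.3-fold higher, and 203 and 18.2 CPM at 0 mM, 11.2-fold higher. It was the only 1 of 7 genes of DNA methylation and its removal that passed and was past 2-fold at both doses; TET1 had 139 and 276 CPM at 4 mM and 230 and 275 CPM at 0 mM.

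Genes of central metabolism are read beside the shares over all genes, 4.44% higher and 7.11% lower at both doses. Of 23 glycolysis genes 16 passed, 2 were higher (the glucose transporter SLC2A3 and the lactate transporter SLC16A1) and 1 lower at both doses, with medians of 0.35 at 4 mM and 0.37 at 0 mM. SLC2A3 had 653 CPM in TE-like cells and 49.5 CPM in aggregates at 4 mM and 676 and 54.9 CPM at 0 mM. The lower gene was ENO2, the neuronal enolase, with 5.35 and 53.9 CPM at 4 mM and 4.11 and 49.2 CPM at 0 mM, beside higher values of ENO1 in TE-like cells. Of 30 genes of the TCA cycle and pyruvate entry 23 passed, and ACO1 was higher and SUCLA2 and the mitochondrial pyruvate carrier subunit MPC2 lower at both doses, which is close to those shares. MPC2 had 9.10 CPM in TE-like cells and 77.2 CPM in aggregates at 4 mM and 8.21 and 66.9 CPM at 0 mM. Among 22 glutamine and glutamate genes 17 passed and the transporter genes SLC1A3 and SLC7A5 and the transaminase gene BCAT1 were higher at both doses, SLC1A3 with 84.5 and 5.64 CPM at 4 mM and 125 and 7.67 CPM at 0 mM. None of 47 subunit genes of complexes I and IV passed 2-fold at either dose, and their medians were -0.25 at 4 mM and -0.11 at 0 mM.

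Proliferation and stress genes were counted in the same way, beside shares over all genes of 6.18% higher and 11.7% lower at 4 mM and of 6.42% higher and 13.7% lower at 0 mM. For both doses together the shares were 4.44% higher and 7.11% lower. Of 43 S phase genes 33 passed and 1 was higher at both doses, a share near that of all genes (4.44%), with medians of -0.12 at 4 mM and -0.20 at 0 mM. Of 54 G2/M genes 47 passed, of which 1 was lower at 4 mM and 8 at 0 mM, with medians of 0.12 and -0.41. Of 18 ATF4 targets, 15 passed and 3, DDIT4, DDIT3 and CEBPB, were lower at both doses. Counted at 0 mM, 5 were lower and 1, ATF3, higher. Of 15 hypoxia genes, 8 passed and 2, EGLN3 and BNIP3, were higher at both doses. Counted at 0 mM, 3 were higher, SLC2A1 among them, and 1, BNIP3L, lower. The list of immediate early and dissociation genes, which can mark handling, had a median of 0.28 at 4 mM and 1.07 at 0 mM. Of the 8 genes that passed, 1, FOS, was higher at 4 mM, and 4, FOS, KLF6, ATF3 and JUND, were higher at 0 mM. Its summed level was 700 CPM in TE-like cells and 564 CPM in aggregates at 4 mM and 1146 and 590 CPM at 0 mM, and its part in the results was not tested.

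**Figure D4:**
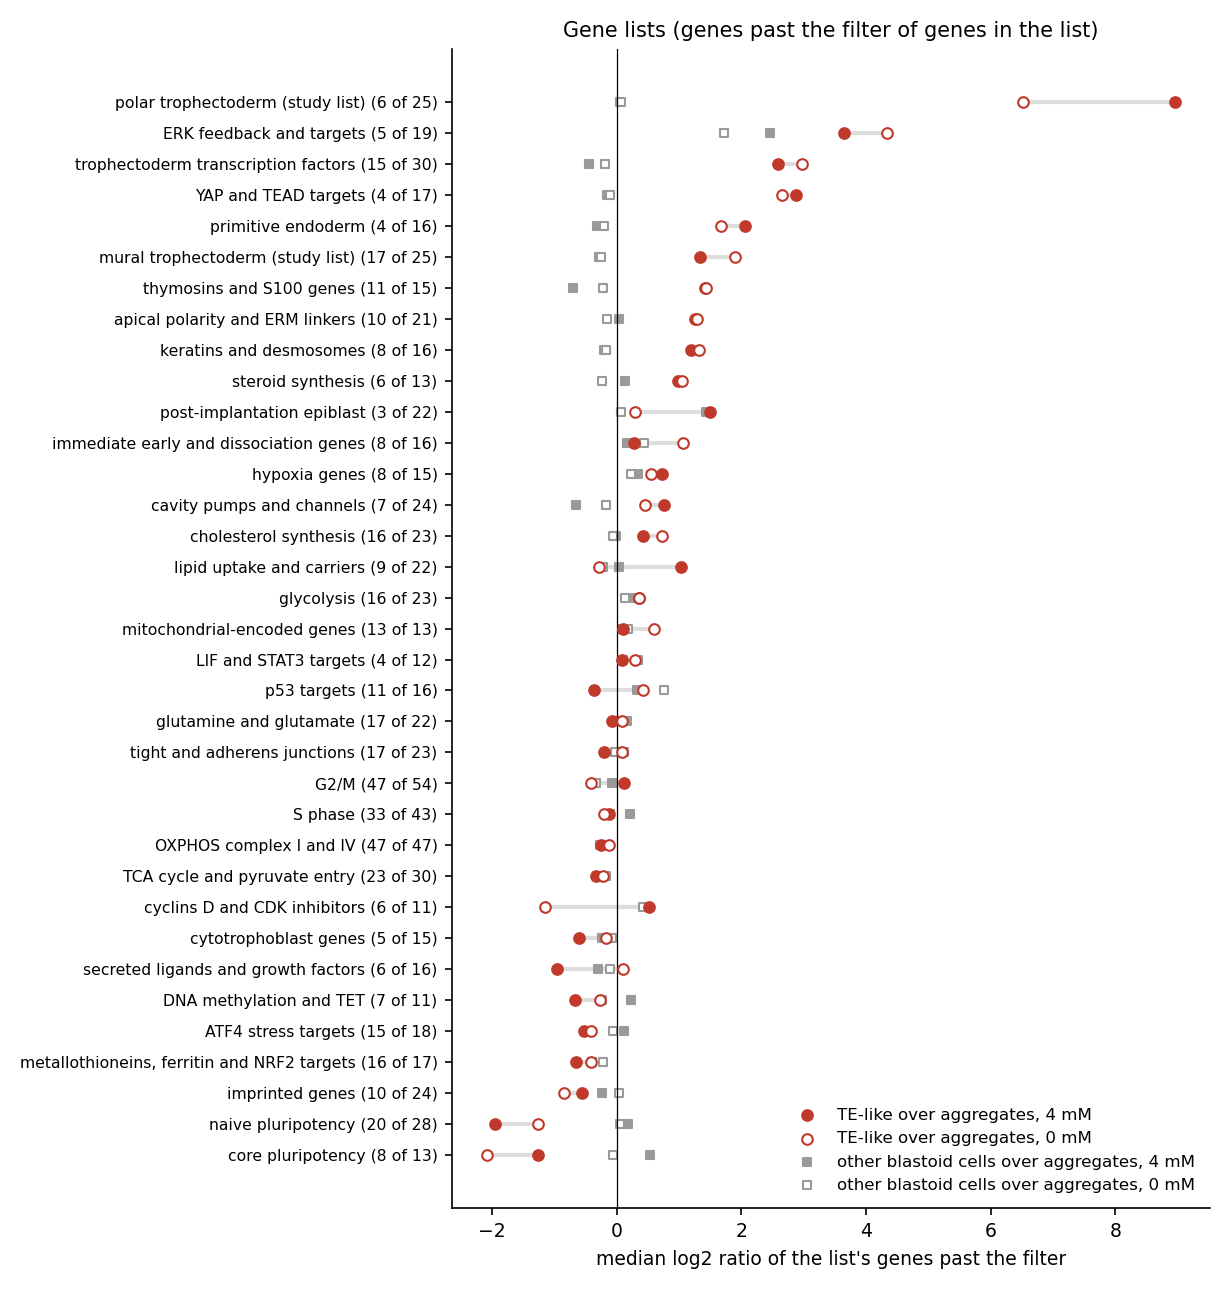
Median log2 ratio over the genes of each list that passed the filter, TE-like cells over aggregates (red circles; filled 4 mM, open 0 mM) and other blastoid cells over the same aggregates (grey squares), with the number that passed of the number listed. Trophectoderm, YAP and ERK lists lie to the right and both pluripotency lists to the left for TE-like cells, against medians over all genes of -0.11 and -0.20, while the other blastoid cells stay near 0 apart from the ERK list (2.46 and 1.73) and the post-implantation epiblast list at 4 mM (1.43, from 3 genes). Several genes of the lists to the right passed the filter through the TE-like cells, and the filter did not use the other blastoid cells.

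Later trophoblast genes stayed at low levels. None of 23 syncytiotrophoblast genes and none of 13 extravillous trophoblast genes passed the filter, and the syncytiotrophoblast genes summed to 27.8 CPM in TE-like cells and 11.01 CPM in aggregates at 4 mM and to 18.5 and 9.56 CPM at 0 mM. CGA, the shared hormone α subunit, had 2 UMIs in TE-like cells and 0 in aggregates at 4 mM, and 0 and 1 UMI at 0 mM. Of 15 cytotrophoblast genes 5 passed, and MSX2 and the cancer-testis gene XAGE2 were higher and PARP1 lower at both doses. The shares over all genes were 4.44% higher and 7.11% lower. LAMA1, a basement membrane laminin chain, had 177 CPM in TE-like cells and 16.9 CPM in aggregates at 4 mM and 119 and 18.1 CPM at 0 mM.

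The 2 doses gave similar but not equal ratios, and the difference between them was not tested. The counting intervals of the ratios did not overlap for 670 of the 4937 genes compared, the ratio being larger at 4 mM for 394 and smaller for 276. Differences between cells are not covered by these intervals, and at 0 mM 1 of the 18 cells gave 65.0% of the CCKBR UMIs. The 670 are therefore no count of genes that respond to the dose. The genes with the largest gap upwards were LINC01356, BCL2L13, CCKBR, CDKN1C and CCND1, and those with the largest gap downwards included PLAU, SCNN1A, ATP6V0D2 and BBC3. CCND1, cyclin D1, had 225 CPM in TE-like cells and 20.9 CPM in aggregates at 4 mM, 10.7-fold higher (9.49 to 12.2), and 57.5 and 45.9 CPM at 0 mM, a ratio of 1.25 (0.830 to 1.82). LINC01356 had 229 and 16.8 CPM at 4 mM and 41.1 and 51.4 CPM at 0 mM. PLAU, the urokinase plasminogen activator, had 4.82 and 52.5 CPM at 4 mM and 20.5 and 20.6 CPM at 0 mM. In all 3 genes the aggregates differed between the doses as well. ATP6V0D2, a proton pump subunit, had 14.4 and 10.1 CPM at 4 mM and 71.9 and 6.87 CPM at 0 mM, where 10 of the 18 cells held it. BCL2L13 had 1 UMI in the TE-like cells at 0 mM (2.05 CPM). In TE-like cells of run 2 these values lay nearer each other between the doses: CCND1 had 200.4 CPM at 4 mM and 134 CPM at 0 mM, past 2-fold above the run 1 aggregates at both doses, BCL2L13 had 23.0 and 21.8 CPM and ATP6V0D2 18.5 and 43.1 CPM.

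TE-like cells of run 2, chosen by the same rule (172 cells at 4 mM and 198 at 0 mM), gave a reading from a separate experiment, although the only aggregates are those of run 1. Of the 219 higher genes, 183 were past 2-fold above the run 1 aggregates at both doses in these cells too, and of the 351 lower genes 232 were past 2-fold below. With run 2 TE-like cells in the filter and the ratios, 196 genes in all were higher and 303 lower at both doses. The rule and the aggregates were shared between the readings, so these counts are no independent support. PTN had 820 CPM at 4 mM and 213 CPM at 0 mM, GATA2 159 and 131 CPM, NR2F2 172 and 63.9 CPM and VGLL1 38.6 and 17.8 CPM in the TE-like cells of run 2. The lower genes were less far down there, with SOX2 at 15.6 and 23.2 CPM, NANOG at 25.0 and 27.2 CPM and FGF4 at 21.7 and 32.5 CPM. The study scored these same cells with its polar and mural trophectoderm lists, so their direction is no independent evidence. The polar list summed to 1305 CPM in TE-like cells at 4 mM and 322 CPM at 0 mM in run 1, to 900.0 and 458 CPM in run 2, and to 99.8 and 106 CPM in the aggregates. The mural list summed to 2710 and 3150 CPM in run 1, to 2282 and 2585 CPM in run 2, and to 717 and 766 CPM in the aggregates.

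**Figure D5:**
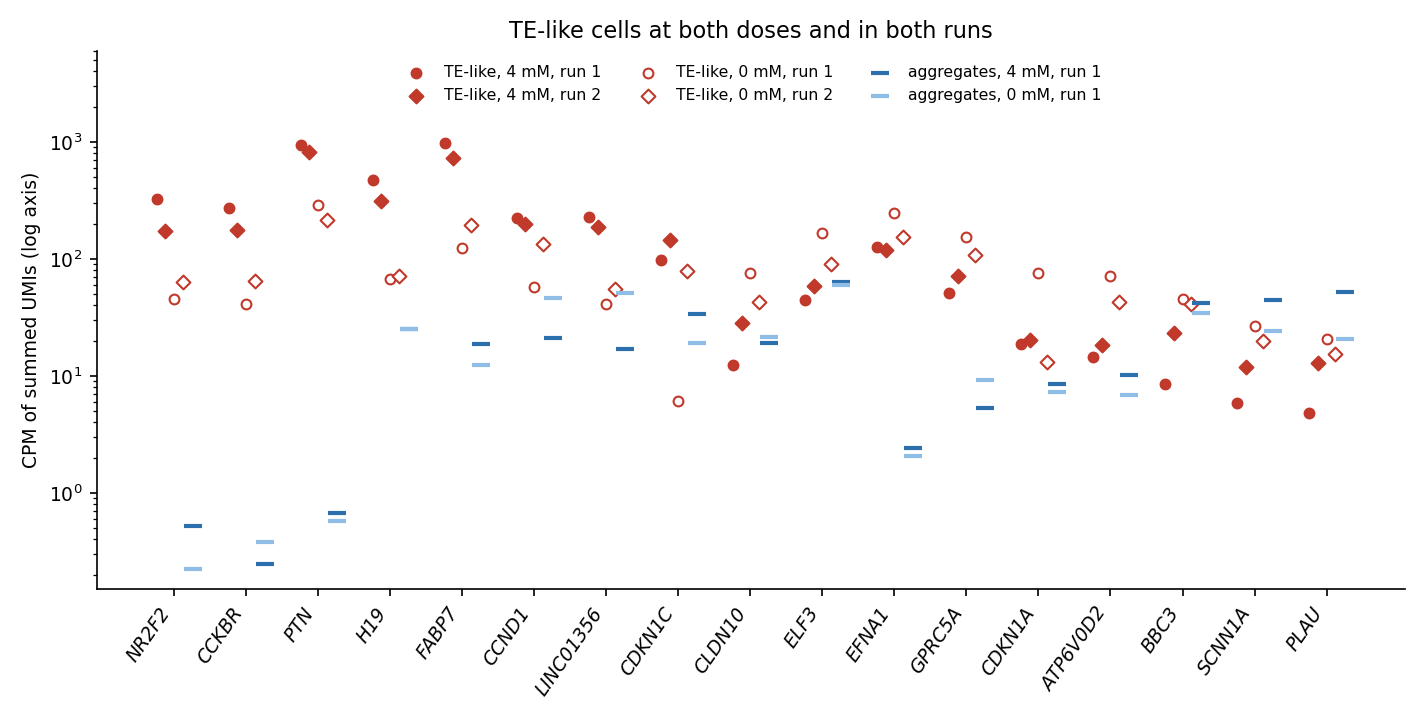
CPM of summed UMIs (log axis) of 17 genes in TE-like cells at 4 mM (filled) and 0 mM (open) in run 1 (circles) and run 2 (diamonds), with the run 1 aggregates as bars; 8 of the genes lie among the 10 with the largest gap between doses and the others were chosen after their values were seen. NR2F2, CCKBR, PTN, H19 and FABP7 are higher at 4 mM in both runs and above the aggregates at either dose, and CDKN1C at 0 mM stands at 6.16 CPM in run 1 and 79.4 CPM in run 2. In run 1 at 0 mM, H19 had a UMI in 5 and CCKBR in 3 of the 18 TE-like cells.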

How the data were processed

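Single-cell RNA was captured from hashtagged H9 cultures in 2 runs. The authors made the deposited UMI counts with Cell Ranger 6.1.2 (GRCh38, from reads converted with bcl2fastq 2.20.0.422; Seurat 4.3.0 downstream, per the labels), so the values are whole-number counts per gene and barcode, not normalised. GEO's samples are capture pools, and each culture was taken from the deposited hashtag table. The members and the 42 gene lists were chosen with earlier results of these data known.

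Counts were summed over the cells of each group and scaled to CPM in Python 3.11.15 (numpy 2.4.6, scipy 1.17.1, pandas 2.3.3, matplotlib 3.10.9). Genes averaging at least 20 CPM over the 4 sums were compared by the log2 ratio of CPM and called at 2-fold, with a sum of 0 UMIs set to 3 UMIs. Levels have exact Poisson and ratios exact conditional binomial (Clopper-Pearson) intervals at 95%. Shares of cells were taken after thinning each cell to 7000 UMIs where stated. TMM factors came from edgeR 4.0.16 (R 4.3.3). The calls and intervals were tested on simulated data. Named genes, without the 9 rule genes, are the 15 highest and the 15 lowest by the smaller of the 2 log2 ratios, the 5 with the largest gap between doses each way with intervals apart, the first 2 each way of a list, and members whose role is described. Alternatives changed the UMI minimum, hashtag share, filter, TE rule, scaling, pseudocount, cells and run. Upstream windows are from RefSeq, for 31 of the 39 named genes. Some genes that the rule names are not reported here.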

Additional observations from a re-analysis of the deposited data

Results flagged for a closer look

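In 2 genes the ratio of TE-like cells over aggregates was past 2-fold in opposite directions at the 2 doses, and the difference was not tested. CDKN1C, an imprinted inhibitor of cyclin-dependent kinases, had a log2 ratio of 1.54 at 4 mM (97.9 CPM in TE-like cells and 33.6 CPM in aggregates) and of -1.64 at 0 mM (6.16 and 19.2 CPM), the second resting on 3 UMIs in 3 of 18 cells. The long non-coding RNA LINC02802 had -1.16 at 4 mM (11.8 and 26.3 CPM) and 1.00 at 0 mM (30.8 and 15.4 CPM), with 22 and 15 UMIs in the TE-like sums.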

How the results depend on the processing

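No paired analysis was possible because each group is 1 culture and its cells carry no replicate numbers. A filter of 5 CPM in place of 20 gave 674 genes higher and 1640 lower at 4 mM, 749 and 1780 at 0 mM, and 437 and 905 at both doses; a filter of 50 CPM gave 155 and 216, 156 and 237, and 120 and 139. With TE-like cells of run 2, 383 genes were lower at 0 mM and the TE-like share at 4 mM was 3.33%, and the log2 ratio of CDKN1C at 0 mM turned to 2.04. The median of the lipid list at 4 mM turned to -0.0729 under the filter of 5 CPM, against 1.04 as reported. TMM factors, 5 CPM added, other minimums of UMIs (5000 and 10000), a hashtag share of 90%, a TE rule at 2 times, aggregates without cells meeting the rule, the mean over cells and TE-like cells without those of most UMIs kept each count within 1.5 times; under TMM factors 250 genes were higher and 287 lower at both doses. Of 840 ratios of named genes recomputed, 837 stayed past 2-fold in the same direction, 2 fell under 2-fold and 1 reversed, and for the 15 highest and 15 lowest genes none of 720 did either. Of 364 recomputed medians of 1 or more in size, 24 came under 1 and 1 reversed. No result can be checked against a repeat of the aggregates, and the 18 TE-like cells at 0 mM limit it most, since 1 UMI there is 2.05 CPM.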
